A study of Capra hircus with 72 samples.

Results

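The retrotrapezoid nucleus (RTN) was compared with the ventral respiratory column (VRC) in goats that breathed room air. The comparison rests on 12 of the 72 libraries of the series, 6 of RTN and 6 of VRC, chosen by their labelled region and gas. The series measured total RNA from 4 brain regions of female goats (Capra hircus) in 3 conditions, and its design text gives 6 animals for each condition. Besides RTN and VRC it holds the nucleus of the solitary tract (NTS) and the medial prefrontal cortex (mPFC). Room air lasted 14 days, mild hypercapnia was 14 days of 6% CO2, and moderate hypercapnia was 7 days of 6% followed by 7 days of 8%. RTN and VRC libraries of those hypercapnic goats serve below as separate samples of the same contrast. Each library is a piece of dissected tissue with all of its cell types. In such samples fewer cells of a type and less RNA per cell cannot be told apart.

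The RTN lies near the ventral surface of the rostral medulla, close to the facial motor nucleus. In rodents its chemosensory neurons express the vesicular glutamate transporter SLC17A6, respond to acid and drive breathing. The VRC is a longer column in the ventrolateral medulla that holds rhythm-generating neurons, including those of the preBötzinger complex, and premotor neurons of the respiratory muscles. HOX genes, which give the embryonic hindbrain its positions from front to back, stay expressed in many adult brainstem neurons.

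RTN libraries held 14.74 to 24.37 M counts and VRC libraries 15.23 to 22.56 M. Levels are given as CPM, counts relative to the size of the library, scaled over the whole series, and the log2 fold change is RTN over VRC throughout, with its standard error. A gene is called changed at a Benjamini-Hochberg adjusted p under 0.05 in the quasi-likelihood test of edgeR. Of 15022 genes tested, 2796 (18.6%) were called: 1527 (10.2%) were higher in RTN and 1269 (8.45%) lower. The shares of 10.2% and 8.45% are the ones to set beside the room air count of each list below. A change of at least 2-fold was seen in 389 of the higher genes (2.59% of those tested) and 106 of the lower ones (0.706%). The 6 RTN values and the 6 VRC values did not overlap for 1434 genes (9.55%), 795 higher in RTN (5.29%) and 639 lower (4.25%). Same-numbered RTN and VRC libraries deviated together, and with the replicate number as a block 2050 genes were higher in RTN and 1934 lower (13.6% and 12.9%). The labels do not say which animal a library came from, so these p-values measure only the spread between these samples.

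Many of the largest changes towards RTN were in genes of motor neurons. Of 10 tested members of a list of cholinergic and motor neuron genes, 7 were called higher and none lower, and their median log2 fold change was 3.74, against -0.0153 over all tested genes. ISL1, a transcription factor of motor neurons, lies on chromosome 20. It ran from 29.8 to 63 CPM in RTN with a median of 49.9, against 0.0683 to 5.56 CPM in VRC with a median of 0.654. The log2 fold change of ISL1 was 4.86 ± 0.62 (adjusted p = 8.76e-05). The largest changes were named only where RTN and VRC values did not overlap. For ISL1 and the other genes so named, the lack of overlap is therefore no separate result.

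The machinery of acetylcholine rose with it. CHAT, the enzyme that makes acetylcholine, ran from 32.2 to 59.6 CPM in RTN (median 38.6), against 1.39 to 5.02 CPM in VRC (median 2.58), a log2 fold change of 3.73 ± 0.27 (adjusted p = 1.13e-06). SLC18A3, which loads acetylcholine into vesicles, ran from 186 to 350 CPM in RTN (median 255), against 4.82 to 48.7 CPM in VRC (median 9.07; log2 4.00 ± 0.50, adjusted p = 7.21e-05). CHAT and SLC18A3 share chromosome 28. SLC5A7, the choline transporter of cholinergic terminals, ran from 140 to 538 CPM in RTN (median 182), against 4.16 to 28.2 CPM in VRC (median 12; log2 4.17 ± 0.48, adjusted p = 3.82e-05). The highest RTN value of SLC5A7, in replicate 6, was more than any other RTN library by over 2-fold. Its lowest RTN library was above every VRC library, as the naming rule requires.

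Further genes of motor neurons were named by the same rule. CHODL, a lectin expressed in motor neurons, ran from 140 to 258 CPM in RTN (median 169), against 5.89 to 22.4 CPM in VRC (median 10.4; log2 3.94 ± 0.30, adjusted p = 1.45e-06). PRPH, the neurofilament peripherin of motor and peripheral neurons, ran from 607 to 925 CPM in RTN (median 799), against 6.62 to 223 CPM in VRC (median 26.1; log2 3.75 ± 0.70, adjusted p = 0.00159). The PRPH values of the regions did not overlap, which the rule requires. Per gene length, in the deposited RPKM, PRPH averaged 378 in RTN and 28.4 in VRC, more than the 19.8 in RTN and 1.49 in VRC of CHAT.

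**Figure D1:**
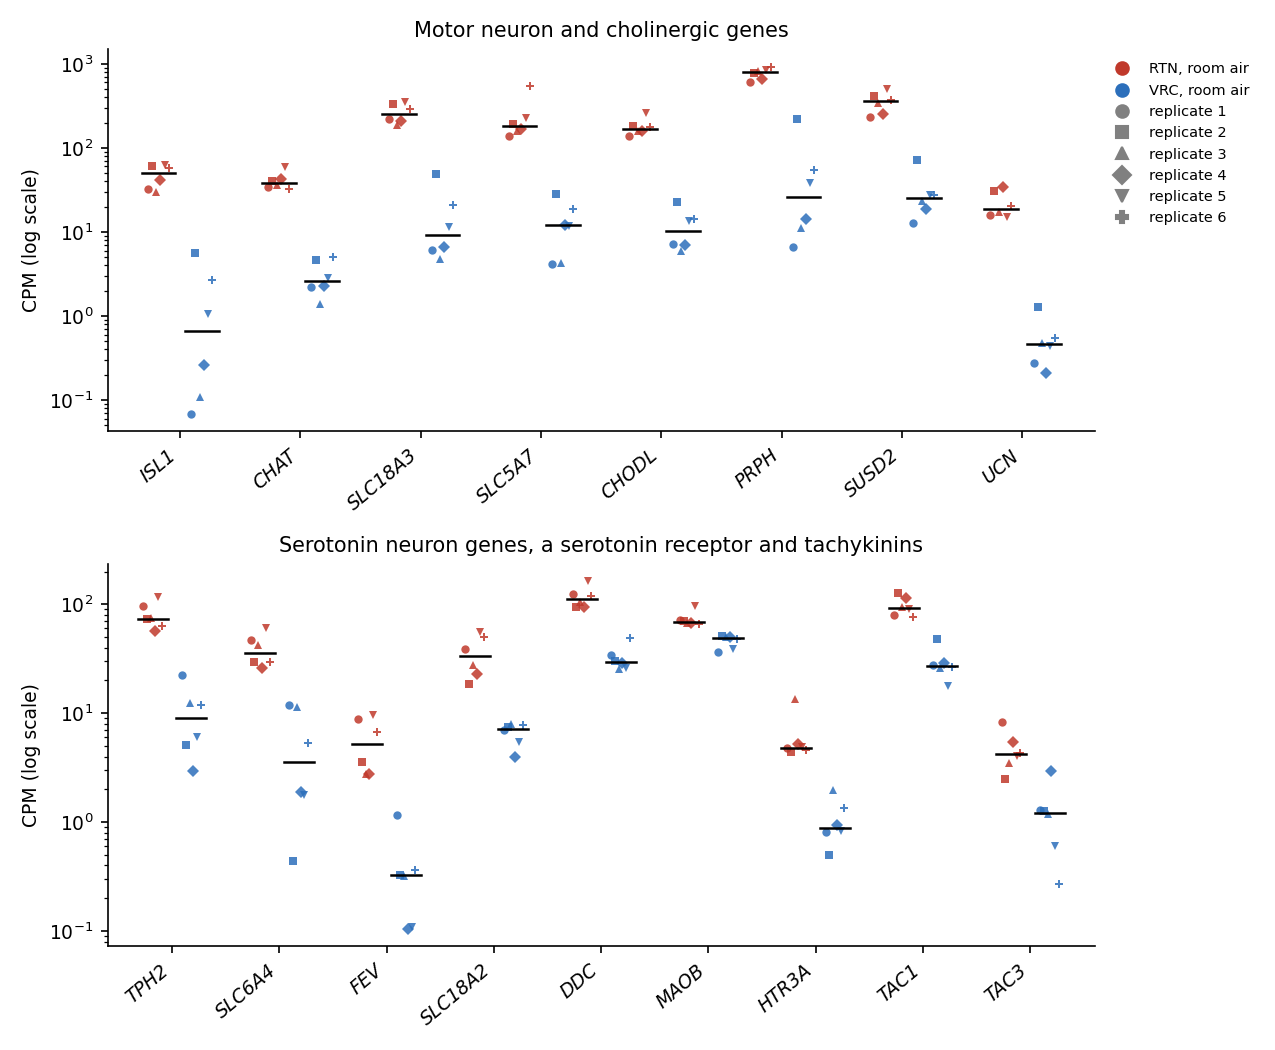
CPM of each gene (log axis) in the 6 RTN libraries (red, left of each pair) and the 6 VRC libraries (blue, right) in room air, with a symbol for each replicate number and a bar at the group median. No RTN library of ISL1, CHAT, PRPH or TPH2 lies as low as any VRC library, and VRC replicate 2 (square) is the highest VRC library for ISL1 (5.56 CPM) and PRPH (223 CPM).

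A single VRC library was the highest of its region in several of these genes, though not in CHAT, where VRC replicate 6 was highest (5.02 CPM). VRC replicate 2 held 5.56 CPM of ISL1, 48.7 of SLC18A3 and 223 of PRPH, the highest values in VRC for each. Without it the list kept 7 members higher and none lower, with a median log2 fold change of 4.06. The hypercapnic goats, who share no library with those in room air, gave 6 of 9 tested members higher in mild hypercapnia (median log2 fold change 3.15) and 6 of 10 in moderate (2.92). Over all genes 6.57% were called higher in RTN in mild hypercapnia and 2.47% in moderate. The level of these genes in NTS in room air was spread widely: CHAT averaged 16.9 ± 19.1 CPM and PRPH 387 ± 411 CPM there (SD, n = 6).

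The largest changes of all named genes included genes of other kinds. UCN on chromosome 11 encodes urocortin, a peptide related to corticotropin-releasing hormone. It ran from 14.9 to 34.3 CPM in RTN (median 18.7), against 0.209 to 1.27 CPM in VRC (median 0.461; log2 5.35 ± 0.36, adjusted p = 8.61e-07). SLC6A19 on chromosome 20, a transporter of neutral amino acids known from kidney and intestine, ran from 8.52 to 52.8 CPM in RTN (median 43.8), against 0 to 1.58 CPM in VRC (median 0.377). It had the largest log2 fold change of the genes named by the rule, 5.90 ± 0.63 (adjusted p = 2.21e-05), and it was near the VRC level in NTS too (0.496 ± 0.944 CPM, SD, n = 6).

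Other genes high in RTN and low in VRC were also among the 15 largest changes. GPR20, an orphan receptor, ran from 4.75 to 7.93 CPM in RTN, against 0 to 0.536 CPM in VRC (log2 4.14 ± 0.36). CAPN6, a member of the calpain family, ran from 7.24 to 38.8 CPM in RTN, against 0.226 to 3.14 CPM in VRC (log2 4.08 ± 0.53). LIX1 ran from 8.18 to 17.9 CPM in RTN, against 0 to 1.93 CPM in VRC (log2 4.06 ± 0.44). The membrane protein gene SUSD2 ran from 234 to 505 CPM in RTN, against 12.9 to 71 CPM in VRC (log2 3.56 ± 0.35). That these did not overlap between the regions was a condition for being named among the 15. ANGPTL7, a secreted angiopoietin-like protein, was less even, with 21.2 CPM in RTN replicate 2 and 1.3 to 5.45 CPM in the other RTN libraries, against 0.0452 to 0.471 CPM in VRC (log2 4.77 ± 0.82).

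Genes of serotonin neurons were another group with many members higher in RTN. Serotonin neurons of the raphe and of the ventral medulla are themselves studied as sensors of CO2. Of 12 tested genes of this list 6 were called higher and 1 lower, with a median log2 fold change of 0.788, and with the replicate block 8 were higher and 1 lower. TPH2, the enzyme that sets the rate of serotonin synthesis in neurons, ran from 57.1 to 117 CPM in RTN (median 73.5), against 2.93 to 22.5 CPM in VRC (median 9.07). Its log2 fold change was 2.98 ± 0.39 (adjusted p = 9.77e-05). The serotonin transporter SLC6A4 ran from 25.8 to 60 CPM in RTN (median 35.8), against 0.44 to 11.9 CPM in VRC (median 3.59; log2 2.85 ± 0.55, adjusted p = 0.002). FEV, the transcription factor that defines serotonin neurons, ran from 2.74 to 9.71 CPM in RTN (median 5.17), against 0.105 to 1.16 CPM in VRC (median 0.326; log2 3.90 ± 0.53, adjusted p = 0.000132).

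Of the remaining called members of this list, SLC18A2 and DDC are shared with other monoamine neurons. SLC18A2, which loads monoamines into vesicles, ran from 18.4 to 55.5 CPM in RTN, against 3.98 to 7.93 CPM in VRC (log2 2.44 ± 0.27), and the decarboxylase DDC from 94.7 to 162 CPM in RTN, against 25.5 to 49 CPM in VRC (log2 1.86 ± 0.17). MAOB, which breaks monoamines down, ran from 65.5 to 95.7 CPM in RTN, against 36.3 to 50.8 CPM in VRC (log2 0.68 ± 0.11). The member that was lower was NKX2-2, a transcription factor of serotonin progenitors and also of the oligodendrocyte lineage, with 13.7 to 19.1 CPM in RTN, against 20.4 to 28.9 CPM in VRC (log2 -0.65 ± 0.12, adjusted p = 0.00148). GATA2 and GATA3, further transcription factors of these neurons, overlapped between the regions, with log2 fold changes of -0.29 ± 0.25 and 0.24 ± 0.24 (adjusted p = 0.461 and 0.545). In the hypercapnic goats 6 of 12 were higher in mild and 5 of 12 in moderate hypercapnia, with none lower. TPH2 was called in both, with log2 fold changes of 2.66 in mild and 3.49 in moderate.

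Of 8 tested serotonin receptors 3 were called higher in RTN, none lower, and 5 were not called, where 10.2% of all genes were higher. HTR3A, the serotonin-gated ion channel, ran from 4.43 to 13.5 CPM in RTN (median 4.85), against 0.495 to 1.98 CPM in VRC (median 0.884; log2 2.53 ± 0.36, adjusted p = 0.000204). Its RTN top, in replicate 3, stood far above the other RTN libraries, which ended at 5.25 CPM. HTR2B and HTR5A, both G protein-coupled receptors, had smaller log2 fold changes of 0.94 ± 0.20 and 0.76 ± 0.18 (adjusted p = 0.00395 and 0.00904). With the myelin level described below as a covariate over 36 libraries, HTR5A stood at -0.15 (adjusted p = 0.634), and of the 8 receptors 1 was higher and 2 were lower.

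The label of the RTN was set against genes of its chemosensory neurons, with a mixed outcome. Of 10 tested members 3 were higher, 1 was lower and 6 were not called, and the median log2 fold change was -0.0385. CDH6, a cadherin, ran from 20.3 to 47.4 CPM in RTN, against 8.87 to 18 CPM in VRC (log2 1.25 ± 0.22, adjusted p = 0.00109).

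NMB and SLC17A6 went in opposite directions. NMB encodes neuromedin B, a peptide of RTN neurons in rodents, and ran from 4.71 to 21.9 CPM in RTN (median 9.15), against 2.46 to 9.3 CPM in VRC (median 4.06). The groups overlapped, NMB was higher in RTN in 5 of 6 same-numbered pairs, and its call (log2 1.24 ± 0.37, adjusted p = 0.0308) was lost when any of 7 libraries was left out. With the replicate block its adjusted p was 0.00451. SLC17A6, the glutamate transporter of brainstem neurons, was lower in RTN, with 24.9 to 60 CPM (median 30.1) against 52.9 to 93.7 CPM in VRC (median 70; log2 -1.01 ± 0.22, adjusted p = 0.0042), and the highest RTN library passed the lowest of VRC. It was also called lower in mild (log2 -1.24) and moderate hypercapnia (-1.76).

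The proton-sensing proteins of RTN neurons were not called without the replicate block. GPR4, a proton-activated receptor, ran from 5.14 to 10.1 CPM in RTN (median 7.46), against 8.2 to 13.3 CPM in VRC (median 9.59; log2 -0.39 ± 0.18, adjusted p = 0.152). With the replicate block GPR4 was called lower in RTN (log2 -0.40, adjusted p = 0.0312). KCNK5, an alkaline-activated potassium channel, had medians of 1.94 CPM in RTN and 2.58 CPM in VRC (log2 -0.28 ± 0.39, adjusted p = 0.677). The peptide genes GAL (log2 0.20 ± 0.57), ADCYAP1 (-0.49 ± 0.29) and PENK (0.31 ± 0.22) and the transcription factor LBX1 (-0.37 ± 0.51) were not called either. A missing call leaves room for differences of the size of these errors.

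Over a wider list of 23 tested proteins that sense protons or CO2, 3 were higher and 3 lower, near the 10.2% and 8.45% of all genes. The count moved with the fit, to 7 higher and 4 lower with the replicate block and to 6 higher and 1 lower without RTN replicate 1. ASIC3, an acid-sensing ion channel, ran from 1.5 to 2.92 CPM in RTN, against 0.33 to 0.942 CPM in VRC (log2 1.77 ± 0.30, adjusted p = 0.000734). The acid-inhibited potassium channels KCNK9 and KCNK3 are known from chemosensitive and motor neurons of rodents. KCNK9 ran from 0.9 to 1.71 CPM in RTN, against 0.107 to 0.317 CPM in VRC (log2 2.49 ± 0.33, adjusted p = 0.000102). KCNK3 was higher by 1.15 ± 0.33 on the log2 scale (adjusted p = 0.0249) and lost its call without RTN replicate 4 or without VRC replicate 4. KCNK1, a related channel, was lower in RTN, with 203 to 258 CPM, against 280 to 357 CPM in VRC (log2 -0.41 ± 0.09, adjusted p = 0.00344).

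Enzymes that interconvert CO2 and bicarbonate split in the same way, with 2 of 12 tested carbonic anhydrases higher and 3 lower. Over all genes 10.2% were higher and 8.45% lower. CA4, a membrane-bound form, was lower in RTN, with 8.43 to 13.5 CPM (median 11.9) against 18.9 to 54.3 CPM in VRC (median 40; log2 -1.70 ± 0.24, adjusted p = 0.000177). CA2, a cytosolic form found in oligodendrocytes, ran from 117 to 172 CPM in RTN, against 172 to 272 CPM in VRC (log2 -0.63 ± 0.12, adjusted p = 0.00252). CA3 was higher, with 2240 to 2810 CPM in RTN against 1340 to 2080 CPM in VRC (log2 0.61 ± 0.10, adjusted p = 0.000896). CA4 was lower in the hypercapnic goats too (log2 -1.64 in mild and -1.87 in moderate), while CA2 was not called there (-0.52 and 0.14).

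The detected HOX genes of the more caudal positions were lower in RTN than in VRC. Of 29 HOX genes of paralogue groups 4 to 13 with a row in the table, 7 passed the filter on low counts, all 7 were called lower in RTN and none overlapped. A gene at this low level passes the filter through the region where it is high, so this count says little by itself. Of the 29 genes 11 had no count in any RTN library and 12 had none in any VRC library. The 29 genes summed to 6.83 to 28.3 CPM in RTN, against 92.2 to 172 CPM in VRC. HOXB5 on chromosome 19 ran from 0.315 to 1.29 CPM in RTN (median 0.91), against 18 to 56.1 CPM in VRC (median 48). Its log2 fold change of -5.59 ± 0.41 was the largest fall of the genes named by the rule (adjusted p = 1.13e-06).

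The other HOX genes of this range followed. HOXA5 on chromosome 4 ran from 0.539 to 1.92 CPM in RTN (median 1.41), against 8.41 to 25.9 CPM in VRC (median 17.3; log2 -3.63 ± 0.33). HOXC4 on chromosome 5 ran from 1.37 to 7.2 CPM in RTN (median 3), against 25.8 to 34.2 CPM in VRC (median 33.2; log2 -3.05 ± 0.33). HOXA4 ran from 3.42 to 14.3 CPM in RTN (median 8.17), against 29 to 42.1 CPM in VRC (median 31.8; log2 -1.99 ± 0.25). HOXD4, at low levels in both, had a log2 fold change of -1.62 ± 0.33. HOXB4 and HOXA7 were near the limit of detection in RTN, with at most 0.226 CPM each, against 0.628 to 1.16 CPM and 0.55 to 2.25 CPM in VRC. HOXB5 averaged 158 ± 35.8 CPM and HOXA5 84 ± 23.9 CPM in NTS (SD, n = 6), above VRC, and HOXB5 had no count in any of the 6 mPFC libraries of room air.

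**Figure D2:**
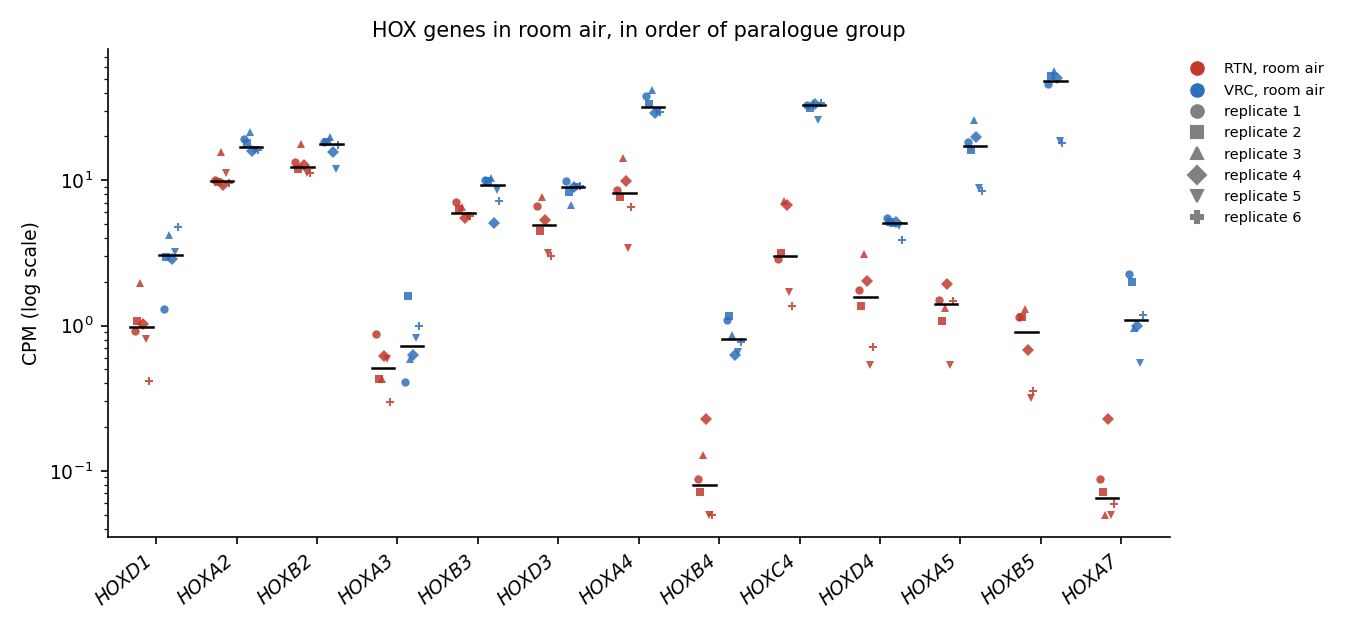
CPM (log axis) of 13 tested HOX genes, ordered by paralogue group, in the 6 RTN libraries (red, left) and 6 VRC libraries (blue, right) in room air, with bars at the medians; values under 0.05 CPM are drawn at 0.05. From HOXA4 onwards no RTN library reaches a VRC library, while the groups overlap for all genes drawn before it except HOXA2. Only genes that passed the filter on low counts are drawn, and those at a low level pass it through the region where they are high.

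HOX genes of the rostral paralogue groups 1 to 3 differed less. Of 7 tested members 3 were lower in RTN and 4 were not called, with a median log2 fold change of -0.624, and with the replicate block 5 were lower. HOXA2 ran from 9.26 to 15.7 CPM in RTN (median 9.88), against 16 to 21.6 CPM in VRC (median 17; log2 -0.70 ± 0.14, adjusted p = 0.00315). HOXD1 (log2 -1.62 ± 0.35) and HOXD3 (-0.77 ± 0.22) were called with overlapping groups. HOXB2 (-0.37 ± 0.14, adjusted p = 0.0939) and HOXB3 (-0.47 ± 0.17, adjusted p = 0.0752) were called only with the block (adjusted p = 0.0307 and 0.0408). HOXA3 had a log2 fold change of -0.62 ± 0.36 and was called in neither fit.

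Partners and regulators of HOX proteins moved in both directions, with 2 of 17 tested higher in RTN and 3 lower. CYP26A1, which breaks down the caudalizing signal retinoic acid, ran from 0 to 0.357 CPM in RTN (median 0.0726), against 0.825 to 2.35 CPM in VRC (median 1.07; log2 -3.35 ± 0.61, adjusted p = 0.0014). PBX3, a DNA-binding partner of HOX proteins, ran from 15.8 to 24.4 CPM in RTN, against 24.4 to 30.9 CPM in VRC (log2 -0.54 ± 0.12, adjusted p = 0.0042). MEIS2, another partner, was higher, with 49.5 to 78.3 CPM in RTN against 41 to 51.2 CPM in VRC (log2 0.45 ± 0.10, adjusted p = 0.00583). Of 39 tested transcription factors that pattern the hindbrain 8 were higher and 7 lower, where 10.2% and 8.45% of all genes were. Among them IRX3 ran from 9.34 to 19.1 CPM in RTN, against 5.04 to 8.48 CPM in VRC (log2 1.16 ± 0.19), and LHX4, a factor of motor neuron development, from 2.93 to 5.12 CPM in RTN, against 0.826 to 1.38 CPM in VRC (log2 1.80 ± 0.20).

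On the VRC side, genes of the preBötzinger complex and respiratory column were mixed: 1 of 12 tested was lower in RTN and 2 were higher, with a median log2 fold change of -0.00525. TAC1, the precursor of substance P, which excites the preBötzinger rhythm, was higher in RTN, with 75.9 to 126 CPM (median 92.3) against 17.8 to 48.2 CPM in VRC (median 27.2; log2 1.73 ± 0.20, adjusted p = 3.88e-05). In mild hypercapnia TAC1 was called higher again (log2 2.12), and in moderate it was not called (log2 1.00, adjusted p = 0.102). TAC1 is made by many serotonin and other medullary neurons besides. CDH9, a cadherin of preBötzinger neurons in mice, stood at log2 1.05 ± 0.23 (adjusted p = 0.0046) in room air and values of 0.10 in mild and -0.07 in moderate hypercapnia, where it was not called. RELN, the extracellular protein reelin, ran from 3.8 to 10.6 CPM in RTN (median 5.9), against 8.2 to 16.6 CPM in VRC (median 11.9; log2 -0.90 ± 0.25, adjusted p = 0.0207), and its call was lost without RTN replicate 5.

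Glutamate transporters parted by type. SLC17A7, the vesicular transporter of cortical, cerebellar granule and precerebellar neurons, ran from 5.72 to 19.4 CPM in RTN (median 9.42), against 31.6 to 79.4 CPM in VRC (median 55.3; log2 -2.42 ± 0.29, adjusted p = 5.44e-05). SLC17A8, the third vesicular glutamate transporter, was higher in RTN at a low level, with 1.07 to 2.46 CPM against 0 to 0.543 CPM in VRC (log2 2.79 ± 0.58, adjusted p = 0.00339). It was not called in mild (1.34) or moderate hypercapnia (-0.04). SV2B, a synaptic vesicle protein, went with SLC17A7, with 3.5 to 10.5 CPM in RTN against 17.2 to 42 CPM in VRC (log2 -2.13 ± 0.27). Of 21 tested genes of glutamate neurons and their receptors 3 were higher and 5 lower.

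Genes of developing and mature precerebellar neurons, which project to the cerebellum, split. Of 13 genes with a row 7 passed the filter on low counts, and of these 3 were higher in RTN and 4 lower. Genes at a low level pass that filter through the region where they are high, so this count says little by itself. The 3 higher members are not described here. NEUROD1 (0.5 to 1.32 CPM in RTN, against 1.43 to 3.05 CPM in VRC) and ZIC1 (0.257 to 1.01 CPM in RTN, against 0.633 to 3 CPM in VRC) were lower, with log2 fold changes of -1.36 ± 0.26 and -1.91 ± 0.39. NEUROD2 and NEUROD6, of forebrain neurons, were low in both regions and lower in RTN, with 0.214 to 0.686 and 0.286 to 1.2 CPM in RTN, against 1.76 to 2.84 and 1.38 to 3.45 CPM in VRC. Of 10 genes with a row on the list of forebrain neurons 4 were tested, and these were the 2 lower ones. RORB was higher, with 1.35 to 2.67 CPM in RTN against 0.643 to 1.43 CPM in VRC (log2 1.08 ± 0.27, adjusted p = 0.0105). The limit of the filter holds for these low levels too.

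Of 21 tested genes of inhibitory transmission 9 were higher in RTN and 2 lower in room air, 5 and none in mild hypercapnia, and 1 and none in moderate. Over all genes 10.2% were higher in room air, 6.57% in mild and 2.47% in moderate hypercapnia. The shares of lower genes were 8.45%, 5.09% and 1.2%. With the myelin level over 36 libraries 1 of the 21 was higher and 2 were lower. Among the receptor subunits GABRA2 ran from 37.9 to 83.4 CPM in RTN, against 16 to 35.2 CPM in VRC (log2 1.16 ± 0.20, adjusted p = 0.0011). GLRB, the subunit that anchors glycine receptors, was higher by 0.59 ± 0.11 on the log2 scale (adjusted p = 0.00156). With the myelin level as a covariate over 36 libraries GLRB stood at -0.20 (adjusted p = 0.426).

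Peptides and their receptors held some of the largest falls. PROK1, a secreted prokineticin, ran from 0.0594 to 3.86 CPM in RTN (median 0.602), against 4.24 to 11.6 CPM in VRC (median 8.02; log2 -2.47 ± 0.57, adjusted p = 0.00722). CRHBP, which binds corticotropin-releasing hormone and urocortin, ran from 1.43 to 19 CPM in RTN (median 4.87), against 34.6 to 80.5 CPM in VRC (median 41.6; log2 -2.88 ± 0.50, adjusted p = 0.000994). It was thus low where UCN was high. OPRK1, the kappa opioid receptor, ran from 7.59 to 11 CPM in RTN, against 12.7 to 45.5 CPM in VRC (log2 -1.64 ± 0.24).

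Counts over these lists were 9 higher and 7 lower of 33 tested neuropeptides, and 10 higher and 2 lower of 49 receptors of peptides and modulators. The shares over all genes were 10.2% higher and 8.45% lower. TAC3, the precursor of neurokinin B, was higher, with 2.5 to 8.35 CPM in RTN against 0.271 to 2.93 CPM in VRC (log2 1.91 ± 0.43). NPPC, a natriuretic peptide, was lower, with 19.1 to 33.1 CPM in RTN against 38.1 to 72.6 CPM in VRC (log2 -1.18 ± 0.17). TRHR, the receptor of thyrotropin-releasing hormone, ran from 5.23 to 9.53 CPM in RTN (median 6.13), against 0.751 to 2.44 CPM in VRC (median 1.04; log2 2.43 ± 0.29, adjusted p = 5.13e-05). ADRA1D, an adrenergic receptor, ran from 2.6 to 7.01 CPM in RTN, against 0.341 to 1.04 CPM in VRC (log2 2.75 ± 0.35), and CHRM2, a muscarinic receptor, from 14 to 25.7 CPM in RTN, against 2.87 to 7.5 CPM in VRC (log2 1.71 ± 0.21).

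Ion channels differed in both directions. KCNJ14, an inward rectifier potassium channel found in motor neurons of the rodent cranial nerves, ran from 60.4 to 102 CPM in RTN (median 83.5), against 7.98 to 16.6 CPM in VRC (median 10.6; log2 2.91 ± 0.18, adjusted p = 3.79e-07). Of 58 tested potassium channels 14 were higher and 11 lower, where 10.2% and 8.45% of all genes were. KCNN1, a calcium-activated channel, ran from 21.8 to 32.5 CPM in RTN, against 6.96 to 9.41 CPM in VRC (log2 1.67 ± 0.13). Of 27 tested sodium, calcium and HCN channels of pacemaking 6 were higher and none lower, against the same shares of all genes. With the myelin score described below over 36 libraries 1 of the 27 was higher and 5 were lower. In that fit 869 of 15113 genes were higher and 913 lower. CACNA1G, a T-type calcium channel, ran from 11.6 to 22.7 CPM in RTN (median 15.4), against 1.98 to 4.61 CPM in VRC (median 2.74; log2 2.34 ± 0.24, adjusted p = 1.59e-05). TRPM4, a cation channel, ran from 19.3 to 32.9 CPM in RTN, against 11.2 to 13.7 CPM in VRC (log2 1.05 ± 0.13).

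NEFL and NEFM, neurofilaments of large axons, were higher in RTN. They stand on a list of vestibular and auditory brainstem neurons, where 4 of 16 tested were higher and 2 lower. The median log2 fold change of that list was -0.00933, and with the myelin score over 36 libraries 1 was higher and 5 were lower. NEFL ran from 9500 to 16600 CPM in RTN, against 3040 to 5000 CPM in VRC (log2 1.77 ± 0.15), and NEFM from 3230 to 5620 CPM in RTN, against 1160 to 2250 CPM in VRC (log2 1.45 ± 0.18). THY1, a surface protein of neurons, ran from 377 to 460 CPM in RTN (median 387), against 121 to 158 CPM in VRC (median 152; log2 1.49 ± 0.08, adjusted p = 1.63e-07). Of 11 tested genes shared by neurons in general 4 were higher and none lower, with a median log2 fold change of 0.259.

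Myelin genes moved the other way. All 13 tested members of the oligodendrocyte and myelin list were lower in RTN, with a median log2 fold change of -0.728, and their summed level was 26300 to 38900 CPM in RTN, against 45100 to 59800 CPM in VRC. MAG, an adhesion protein of myelin, ran from 1620 to 2250 CPM in RTN, against 2730 to 3510 CPM in VRC (log2 -0.76 ± 0.09, adjusted p = 4.92e-05). MOG, on the outer face of myelin, ran from 516 to 692 CPM in RTN, against 870 to 1070 CPM in VRC (log2 -0.71 ± 0.09, adjusted p = 6.31e-05). In a fit of all 24 room air libraries, NTS and mPFC included, 2 of the 13 were called lower, MAG and MOG not among them, with a median of -0.712. In mild hypercapnia 11 of 13 were called lower (median -0.670), and in moderate none was called (median -0.445). Of 10 tested genes of the precursor list 3 were lower, among them SOX10, a transcription factor of the whole lineage, with 37.4 to 58.5 CPM in RTN against 86 to 116 CPM in VRC (log2 -1.04 ± 0.11).

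**Figure D3:**
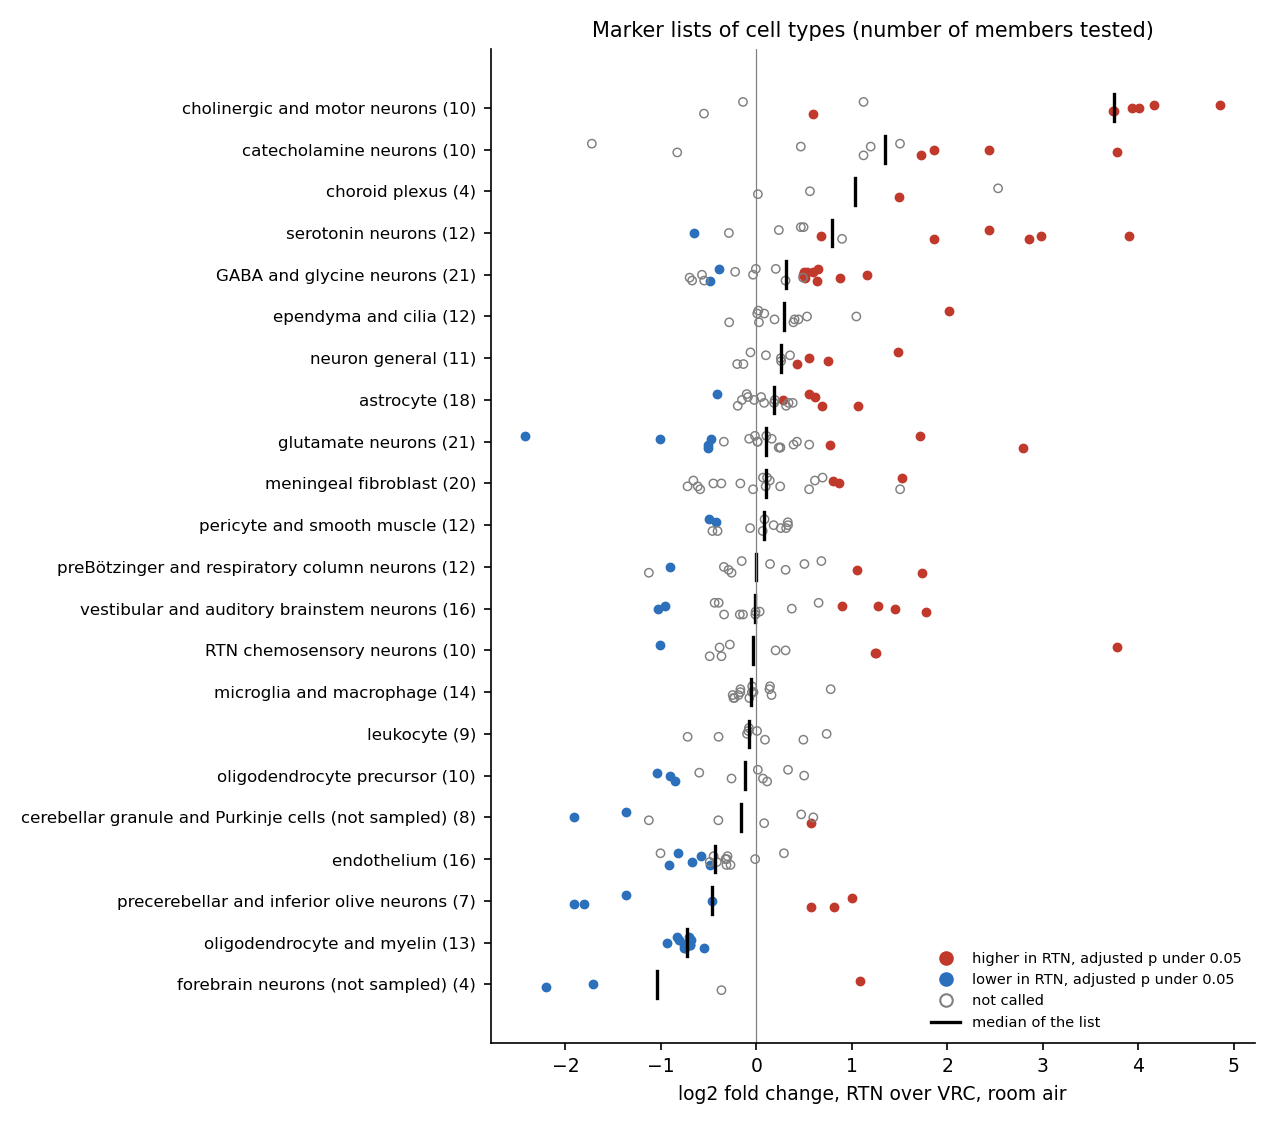
Log2 fold change of RTN over VRC in room air for each tested member (points) of the marker lists of cell types, with called members filled, in red where higher in RTN and in blue where lower, and a bar at the median of each list, lists ordered by that median. The 10 cholinergic and motor neuron genes have a median of 3.74 and the 13 myelin genes a median of -0.728.

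The difference in myelin runs beside every other result between these regions. The list's log2 CPM averaged 7.99 to 8.32 in RTN and 8.8 to 9.09 in VRC, and region accounted for 93% of its variance in room air. A fit with this score as a covariate called 0 genes, with 337 at an unadjusted p under 0.05, so myelin content and region cannot be told apart within these 12 libraries. Over the 36 RTN and VRC libraries of all 3 conditions region accounted for 63.9% of it, and a fit with condition and the score called 869 genes higher in RTN and 913 lower. Of the room air calls, 364 of the higher and 215 of the lower genes were kept there, against 1465 and 1189 in the same fit without the score.

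The named groups came through this unequally. With the score over 36 libraries 5 of 10 cholinergic and motor neuron genes were higher and 1 lower, with a median log2 fold change of 1.75, and 6 of 12 serotonin neuron genes were higher. All 6 tested HOX genes of paralogue groups 4 to 13 were lower, with a median of -4.02. They passed the filter on low counts through the region where they are high, so this count says little by itself. The score is the average of the 13 myelin genes, so that none of them was called was fixed in advance. Of the 11 general neuron genes none was higher and 4 were lower. CHAT (log2 1.86, adjusted p = 0.0168) and UCN (2.38, adjusted p = 0.042) remained called, while SLC5A7 (1.68, adjusted p = 0.133) and PRPH (1.03, adjusted p = 0.489) did not pass.

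**Figure D4:**
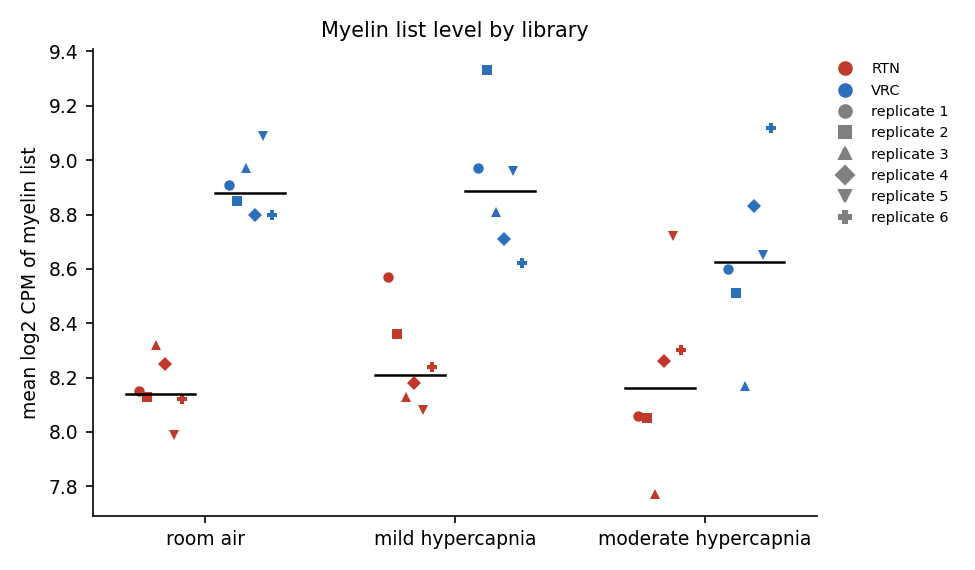
Average log2 CPM over the myelin genes in each RTN library (red, left) and VRC library (blue, right) in room air, mild and moderate hypercapnia, with bars at the medians. In room air the RTN libraries lie between 7.99 and 8.32 and the VRC libraries between 8.8 and 9.09.

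Other glia and vessels differed less. The astrocyte list summed to 20400 to 30300 CPM in RTN, against 11900 to 19700 CPM in VRC, with no overlap. GFAP alone makes up a large part of that sum. Of 18 tested members 5 were higher, 1 lower (8 and 1 with the replicate block) and 12 not called. Their median log2 fold change was 0.189. GFAP, the intermediate filament of astrocytes, ran from 10100 to 19600 CPM in RTN (median 14300), against 3700 to 9910 CPM in VRC (median 6830; log2 1.07 ± 0.24, adjusted p = 0.00571). Of 16 tested endothelial genes 5 were called lower in RTN and none higher, where 8.45% of all genes were lower, and 10 were lower with the replicate block, where 12.9% were. Without VRC replicate 5 the 5 became 3, and with the myelin score over 36 libraries 3 were higher and none lower. Among them KDR, a receptor of vascular endothelial growth factor, ran from 91.1 to 118 CPM in RTN, against 138 to 168 CPM in VRC (log2 -0.48 ± 0.07), and with the myelin score over 36 libraries it stood at 0.04 (adjusted p = 0.813). No microglial gene of 14 and no leukocyte gene of 9 was called. DCN, a proteoglycan of the meninges that cover the ventral surface, ran from 29.9 to 49.4 CPM in RTN, against 14.7 to 26.8 CPM in VRC (log2 0.86 ± 0.15), and its call was lost in the fit of all 24 room air libraries (adjusted p = 0.0763). Of 20 meningeal genes 3 were higher and none lower, 5 were higher and 3 lower with the replicate block, and none was called over the 24 libraries. Over 36 libraries with condition as a term 8 were higher and 2 lower, and with the myelin score 8 were higher and none lower. In the fit with the score 869 of 15113 genes were higher. In mild hypercapnia 4 of the 20 were higher and in moderate 2, with none lower.

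The RTN-over-VRC difference was compared with the same contrast in the hypercapnic goats. In mild hypercapnia 1756 of 15055 genes (11.7%) were called and in moderate 552 of 15024 (3.67%). Lower in RTN in mild hypercapnia were 767 genes (5.09%), and 1313 with the replicate block. Of the genes higher in RTN in room air, 1503 of 1512 tested had the same sign in mild and 1465 of 1509 in moderate hypercapnia. Of all genes tested there, 45.4% and 49.2% had that sign. Of the genes lower in RTN in room air 1252 of 1260 had the same sign in mild and 1215 of 1264 in moderate, where 54.6% and 50.8% of all genes did. Called again in the same direction were 787 of the higher and 498 of the lower genes in mild, and 333 and 128 in moderate.

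**Figure D5:**
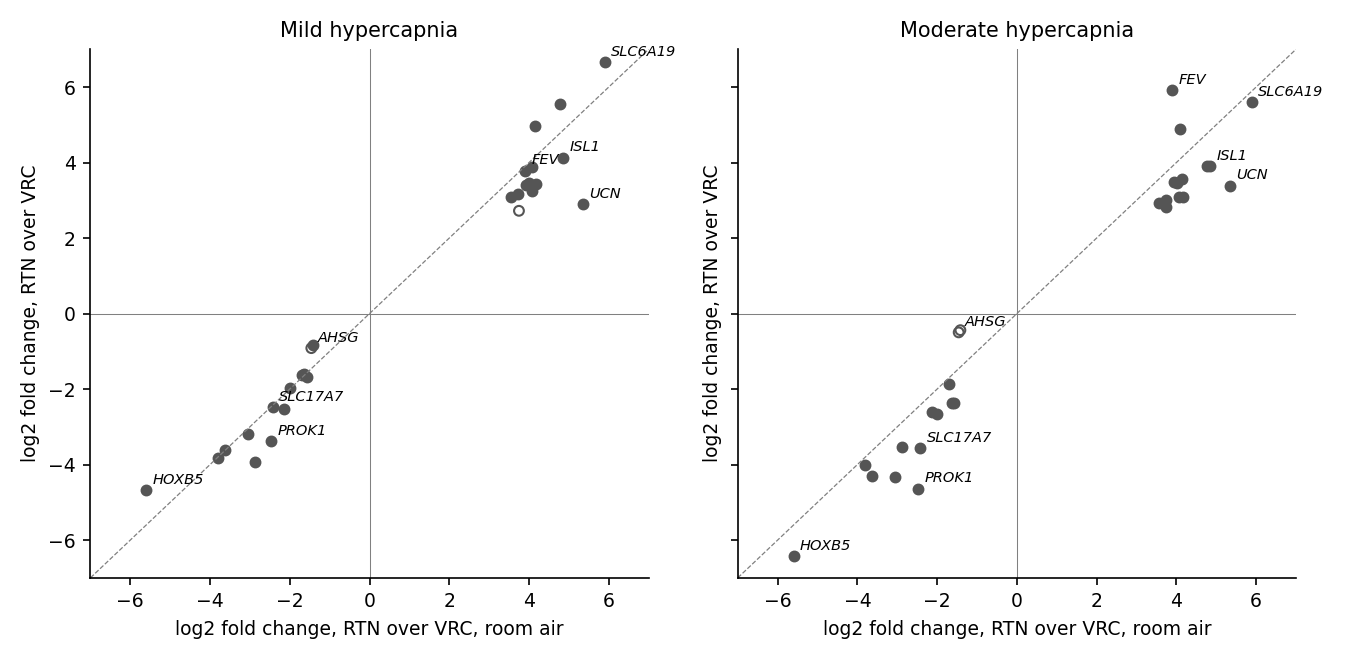
Log2 fold change of RTN over VRC in room air (horizontal) against the same quantity in mild (left) and moderate (right) hypercapnia for 28 genes with the largest non-overlapping changes in room air. Filled points passed an adjusted p of 0.05 in the hypercapnic goats and the dashed line marks equal values; HOXB5 lies at -5.59 in room air and at -6.43 in moderate hypercapnia.

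Among the genes with the largest changes in room air some were called again and others were not. HOXB5 had log2 fold changes of -4.67 in mild and -6.43 in moderate hypercapnia (adjusted p = 3.01e-05 and 3.71e-08), and CHODL 3.41 and 3.50 (adjusted p = 0.000982 and 0.000918). AHSG, the plasma protein fetuin-A, was lower in RTN in room air (7.93 to 12.6 CPM in RTN, against 14.7 to 37.2 CPM in VRC, log2 -1.46 ± 0.20) and was called in neither hypercapnic group (-0.92 in mild and -0.50 in moderate). KLK8, a protease of the brain, fell by 1.42 on the log2 scale in room air and had -0.82 in mild (adjusted p = 0.0269) and -0.44 in moderate hypercapnia (adjusted p = 0.465).

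A test of whether the RTN-over-VRC difference itself depended on the condition called 0 of 15746 genes in edgeR, with 282 at an unadjusted p under 0.05. With the replicate block it also called 0, with 494 under that level. Both are fewer than the 1 in 20 that chance puts there. The calls in room air that are missing under hypercapnia are therefore not shown to differ from it. MYO5C, an unconventional myosin and 1 of the 5 genes of smallest p in that test (adjusted p = 1), was the single gene called in opposite directions. It ran from 0 to 0.786 CPM in RTN, against 0.588 to 1.93 CPM in VRC in room air (log2 -1.89 ± 0.55, adjusted p = 0.0273), and its log2 fold change in moderate hypercapnia was 1.82 (adjusted p = 0.00969). Its call in room air was lost without any of 4 single libraries.

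CRYBA4 and PKIB were also among the largest falls in room air. CRYBA4, a crystallin gene known from the lens, ran from 0.286 to 2.82 CPM in RTN (median 1.28), against 4.9 to 37.3 CPM in VRC (median 22.8; log2 -3.80 ± 0.47, adjusted p = 6.76e-05). PKIB, an inhibitor of protein kinase A, ran from 7.82 to 16.3 CPM in RTN, against 27.4 to 47 CPM in VRC (log2 -1.57 ± 0.18, adjusted p = 4.53e-05). Both were called lower in RTN in mild and in moderate hypercapnia.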

How the data were processed

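RNA was measured in dissected brain tissue of female goats. The authors deposited 1 table of whole-number counts per gene with gene lengths and RPKM values (reads scaled by gene length and library size) for 72 libraries. Per the labels' protocols, total RNA was column-purified and libraries were made with the SMARTer Universal Low Input RNA Kit. FastQC and Trimmomatic, STAR and featureCounts, and edgeR are the tools listed in the submitters' processing notes. Which versions, build and annotation were used, and whether counting used strand, is not given in the sources read for this text, so overlapping and near-identical genes are uncertain. Chromosomes are those of the deposited table.

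Members, gene lists and rules were chosen with earlier results of these data known. The deposited counts were tested with edgeR 4.0.16 (R 4.3.3) by the quasi-likelihood test, after TMM scaling and a filter on low counts (filterByExpr, minimum count 10), on the 12 libraries of room air. P-values were adjusted over all genes. The printed CPM are scaled over the series. The table holds 21343 genes, of which 6643 have no symbol. Named genes are the 15 largest non-overlapping called changes in each direction with at least 5 CPM in the higher region, the 4 called members of smallest p of each list, all members of the RTN, serotonin and HOX lists, and the 5 genes of smallest interaction p. Not every gene so chosen is described, and some are not reported here. Of 720 list symbols 664 have a row and 533 were tested.

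Replicate numbers come from the labels. Deviations from the group means correlated at 0.247 to 0.4 within the 6 same-numbered pairs and at -0.188 to 0.0724 between different numbers, so the numbers were taken to pair RTN and VRC. Libraries of 1 group differed by more than sampling noise, with a chi-square per degree of freedom of 18 or more. Alternative fits used DESeq2 1.42.0, limma 3.58.1 with quality weights, RLE factors, the unfiltered table, the replicate block, the 24 room air libraries together, the myelin score as a covariate and each library left out in turn. The fits over 36 libraries were added once the data had been looked at. The scripts were tested on simulated data.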

Additional observations from a re-analysis of the deposited data

Results flagged for a closer look

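In 21 of 196 groups of 6 values among the genes named above, 1 library stood apart from the other 5 by a gap over the 95% critical value of Dixon's test. Chance flags about 1 in 20 groups, and the genes of a list are not independent. VRC replicate 2 had 6 of these values, all high: UCN 1.27 CPM, SLC18A3 48.7, PRPH 223, SUSD2 71, NMB 9.3 and TAC1 48.2, where the other VRC libraries ended at 0.543, 20.8, 53.8, 27.5, 4.57 and 29 CPM. No call of a named gene was lost without that library.

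RTN replicate 3 was high in CRHBP (19 CPM), HOXA2 (15.7), HOXB2 (17.7) and HTR3A (13.5). RTN replicate 5 was high in CHODL (258 CPM), CHAT (59.6) and MAOB (95.7). ANGPTL7 stood at 21.2 CPM in RTN replicate 2, and SLC5A7 at 538 CPM in RTN replicate 6. In VRC, FEV was high in replicate 1 (1.16 CPM), CYP26A1 in replicate 4 (2.35) and MYO5C in replicate 5 (1.93), while HOXC4 was low in replicate 5 (25.8). VRC replicate 6 was high in DDC (49 CPM) and TRHR (2.44).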

How the results depend on the processing

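Of the 98 genes named and tested in room air, 87 were called, and DESeq2 kept all 87 calls. Without single libraries 83 kept their call in every fit, and KCNK3, MYO5C, NMB and RELN lost it in at least 1. The counts ran from 1211 to 1524 higher and from 933 to 1189 lower in RTN without single libraries. Of the lists, neuropeptides lower in RTN ran from 3 to 6 and potassium channels from 6 to 9 there, against 7 and 11 with all 12 libraries. The replicate block, with replicate numbers taken as pairs, gave 1934 genes lower in RTN in room air and 1313 in mild hypercapnia, and lost none of the 87 calls. The 24 room air libraries together gave 1428 higher and 874 lower, and KLK8, MAG, MOG, DCN, HOXA2, KCNK1 and MYO5C lost their call. In moderate hypercapnia DESeq2 called 727 higher and 470 lower, against 371 and 181 in edgeR. The 36 libraries with condition as a term gave 2934 and 3187, where more samples were fitted, and with the myelin score 869 higher. The myelin score within room air left 0 and 0 calls, where region and score are nearly the same variable, and the log2 fold changes of 15 called genes changed sign: CRHBP 1.49, PROK1 1.59, HOXA4 0.31, NMB -1.85, RELN 0.50, MAG 0.063, MOG 0.048, HOXD3 0.42, ASIC3 -0.65, KCNK1 0.41, HTR5A -0.086, ADRA1D -0.11, MAOB -0.25, HOXD4 1.03 and MYO5C 0.32, each with an adjusted p near 1. Over 36 libraries with the score the sign changed for AHSG 0.31, GLRB -0.20, MAG 0.10, KDR 0.041, KCNK1 0.0041, KCNK3 -0.086, CA2 0.24, HTR5A -0.15 and MYO5C 0.82, and without the score for MYO5C 0.087; the cause was not tested. MAG and MOG are themselves part of the score, so their small values in fits with it were fixed in advance. The interaction gave 0 calls with RLE factors and with the block. Low counts limit genes near 1 CPM such as HOXB4, HOXA7 and CYP26A1 in RTN.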
